A study of Mus musculus with 72 samples.

Results

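Ctgf, Cyr61, Ankrd1, Thbs1, Tgfb2, Tgfbi, Acta2 and Tagln are 8 mouse genes that are standard readouts of TGF-beta and YAP signalling, chosen by name out of the 22380 protein-coding genes of the GENCODE vM1 annotation of the mm9 genome. TGF-beta ligands act through cell surface receptor kinases that phosphorylate SMAD proteins, which enter the nucleus and bind DNA at a short CAGAC core. YAP is a coactivator held in the cytoplasm by the Hippo kinases; in spread, contracting cells it enters the nucleus and acts through TEAD factors, which bind GGAATG. Genes of the contractile cytoskeleton answer in addition to SRF, which binds the CArG box, so that fibroblasts under tension or TGF-beta turn on matricellular, matrix and smooth muscle genes together.

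The study mapped chromatin by ChIP-seq in C57BL/6 mouse cells that have both nucleosome-binding proteins HMGN1 and HMGN2, Hmgn1+/+n2+/+ (WT), or lack both, Hmgn1-/- n2-/- (DKO), to ask whether these proteins affect enhancer acetylation and factor binding. The mouse embryonic fibroblasts (MEFs) used here were profiled with 4 antibodies and 2 libraries per genotype, 16 libraries in all. H3K27ac marks active promoters and enhancers, p300 is an acetyltransferase that deposits it, Brd3 is a bromodomain protein that reads acetylated histones, and CEBPB is a sequence-specific transcription factor. The deletions are constitutive, and no treatment or TGF-beta stimulation is named for these cells. The study calls the libraries of a genotype biological replicates, and whether they came from separate cultures or embryos is not given in the sources used here, so p-values measure the spread between these libraries.

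The chromatin of the cells was that of fibroblasts. H3K27ac was called within 1000 bp of a start of 11 or 12 of 12 fibroblast markers in each library (Col1a1, Pdgfra, Twist1 and others), and of 0 of 6 epithelial and 0 of 6 stem cell markers. It was called at 0 or 1 of 6 endothelial markers, at 1 of 6 blood markers (Csf1r) and at 3 or 4 of 6 smooth muscle markers. The files used here were peak lists, 1 per library, and not reads. The H3K27ac lists held 84850 and 84760 peaks in WT and 76968 and 77614 in DKO, while the other lists were shorter in DKO: 7323 and 5398 against 2974 and 3325 for p300, 31404 and 33072 against 8970 and 11549 for Brd3, and 14197 and 14692 against 4886 and 5328 for CEBPB. The read depth of each library is not in these lists, and the study's text gives it as a range and an average over all its samples. The fold enrichment and p of weak peaks gave an estimate of the lowest background a library was scored against, which was 1.44 to 1.87 reads for H3K27ac, 1.15 to 1.58 for p300, and, for Brd3, 1.75 and 1.89 in WT against 1.24 and 1.54 in DKO; it could not be solved for CEBPB. The part of depth in the differences below was not tested.

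In mm9, Ctgf lies at chr10:24315248-24318489 and Thbs1 at chr2:117937612-117952869, both on the plus strand, as does Tgfbi at chr13:56710920-56740923. On the minus strand are Cyr61 at chr3:145309935-145312949, Tgfb2 at chr1:188447065-188529871, Tagln at chr9:45737711-45744141, and, on one chromosome, Acta2 at chr19:34315580-34329826 and Ankrd1 at chr19:36186455-36194334. For each gene, peaks were counted over the gene body and 50 kb on each side. Peaks of the 4 libraries of an antibody that overlapped by at least 1 bp were joined into sites, and a promoter site lies within 1000 bp of a transcript start. Over the 8 windows there were 186 H3K27ac, 25 p300, 140 Brd3 and 30 CEBPB sites, of 104443, 9180, 39745 and 17002 sites in the genome. Windows reach other genes: Enpp1 at Ctgf, Znhit6 at Cyr61, Rpp30 at Ankrd1, Rrp15 at Tgfb2, Stambpl1 and Fas at Acta2, and Rnf214, Pcsk7, Sidt2 and Pafah1b2 at Tagln. A peak in a window is therefore not shown to act on the gene it is counted for.

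The DNA just upstream of 3 of these genes, shown because each holds a TEAD motif, is where p300 or CEBPB was called in some libraries. RefSeq promoter sequences (GRCm38.p6) matched 5 of the 8 genes, Cyr61, Ankrd1, Tgfb2, Tgfbi and Acta2, and each was placed in mm9 by exact match. The 250 bases before the start are given 5′ to 3′ on the gene's strand, with capitals marking GGAATG (TEAD) and CAGAC (SMAD) on either strand.
Cyr61, chr3:145312950-145313199, minus strand: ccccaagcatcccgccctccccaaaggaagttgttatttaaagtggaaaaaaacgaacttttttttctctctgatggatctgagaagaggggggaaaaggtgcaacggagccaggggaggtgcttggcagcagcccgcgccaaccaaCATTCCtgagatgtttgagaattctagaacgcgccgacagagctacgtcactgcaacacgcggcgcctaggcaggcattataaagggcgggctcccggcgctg
Ankrd1, chr19:36194335-36194584, minus strand: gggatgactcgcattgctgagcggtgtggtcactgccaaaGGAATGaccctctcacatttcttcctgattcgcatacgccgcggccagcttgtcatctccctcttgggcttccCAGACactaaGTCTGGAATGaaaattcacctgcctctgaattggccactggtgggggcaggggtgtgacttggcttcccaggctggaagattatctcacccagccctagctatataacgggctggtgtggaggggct
Acta2, chr19:34329864-34330113, minus strand: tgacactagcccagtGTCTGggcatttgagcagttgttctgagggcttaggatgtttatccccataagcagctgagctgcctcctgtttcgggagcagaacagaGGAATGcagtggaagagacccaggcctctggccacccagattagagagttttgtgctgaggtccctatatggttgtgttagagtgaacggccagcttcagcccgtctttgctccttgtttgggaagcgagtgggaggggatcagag
The Ankrd1 promoter holds 2 TEAD motifs, 210 and 123 bases before the start, and the nearer one overlaps a SMAD core that begins 127 bases before it. Cyr61 has 1 TEAD motif at -103 and Acta2 1 at -146. The Tgfb2 and Tgfbi promoters have none, and each has 2 SMAD cores, so 3 of the 5 promoters hold GGAATG. Over the RefSeq promoters searched, 300 bases each, 14.6% of 32544 hold GGAATG and 49.5% hold CAGAC, so a SMAD core alone is common. None of the 5 promoters held an AP-1 motif (TGANTCA) or a CEBP core (TTGCNNAA) in this window, which are in 7.79% and 10.8% of promoters, or a CArG box in its strict form, CC and GG with 6 bases of A or T only between them (1.64%). With 1 G or C allowed among the 6 bases, a form added after the strict one had been searched, Acta2 had 2 CArG boxes, ccctatatgg beginning at -84 and ccttgtttgg at -34, and the other 4 promoters had none, beside 9.96% of all promoters. A match is a description of the letters and not a bound site.

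H3K27ac around the 8 genes showed no called change in peak number in windows of 50 kb, while a window of 10 kb gave 1 call. By limma (threshold adjusted p of 0.05) 0 of 8 were called, beside 1.58% of the 17312 genes tested that had fewer peaks in DKO. Of all genes called, 90.8% had equal replicates in both genotypes, which leaves almost no spread. Among the 8, 1 had an unadjusted p under 0.05, a count with no share of all genes beside it. In an alternative with 1 spread for all genes 0 were called, beside 4.27% with fewer. The median log2 change in peak number, DKO minus WT, was -0.09 over the 8 genes and -0.15 over all genes. Both DKO libraries lay below both WT libraries for 1 gene, Tagln, beside 28.9% of all genes, and above for 1, Thbs1, beside 7.42%.

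Tagln encodes transgelin, an actin-binding protein of smooth muscle and of activated fibroblasts. Its window held 30 and 29 H3K27ac peaks in WT and 22 and 19 in DKO, a log2 change of -0.52 with an SE of 0.10 and an adjusted p of 0.184 by limma. The groups did not overlap, but the base pairs covered did: 22.4 and 18.4 kb in WT against 19.3 and 20.1 kb in DKO. Thbs1 encodes thrombospondin 1, a matricellular protein that can activate latent TGF-beta. It had 21 and 27 peaks in WT and 29 in both DKO libraries (log2 change 0.28, SE 0.16, adjusted p 0.517).

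The other 6 genes overlapped between genotypes. Ctgf, a matricellular protein and a direct target of both pathways, had 24 and 25 H3K27ac peaks in WT and 16 and 24 in DKO. Cyr61, its close relative, had 22 and 24 against 23 and 23. Ankrd1, a nuclear and sarcomeric ankyrin repeat protein used as a YAP target, had 16 and 19 against 17 and 13. In these 3 YAP targets the genotypes overlapped. Tgfb2, a TGF-beta ligand, had 18 and 16 against 15 and 16 peaks, and Tgfbi, a matrix protein induced by TGF-beta, had 14 and 14 against 12 and 15. Acta2, smooth muscle alpha-actin, had 24 and 27 against 24 and 26.

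**Figure D1:**
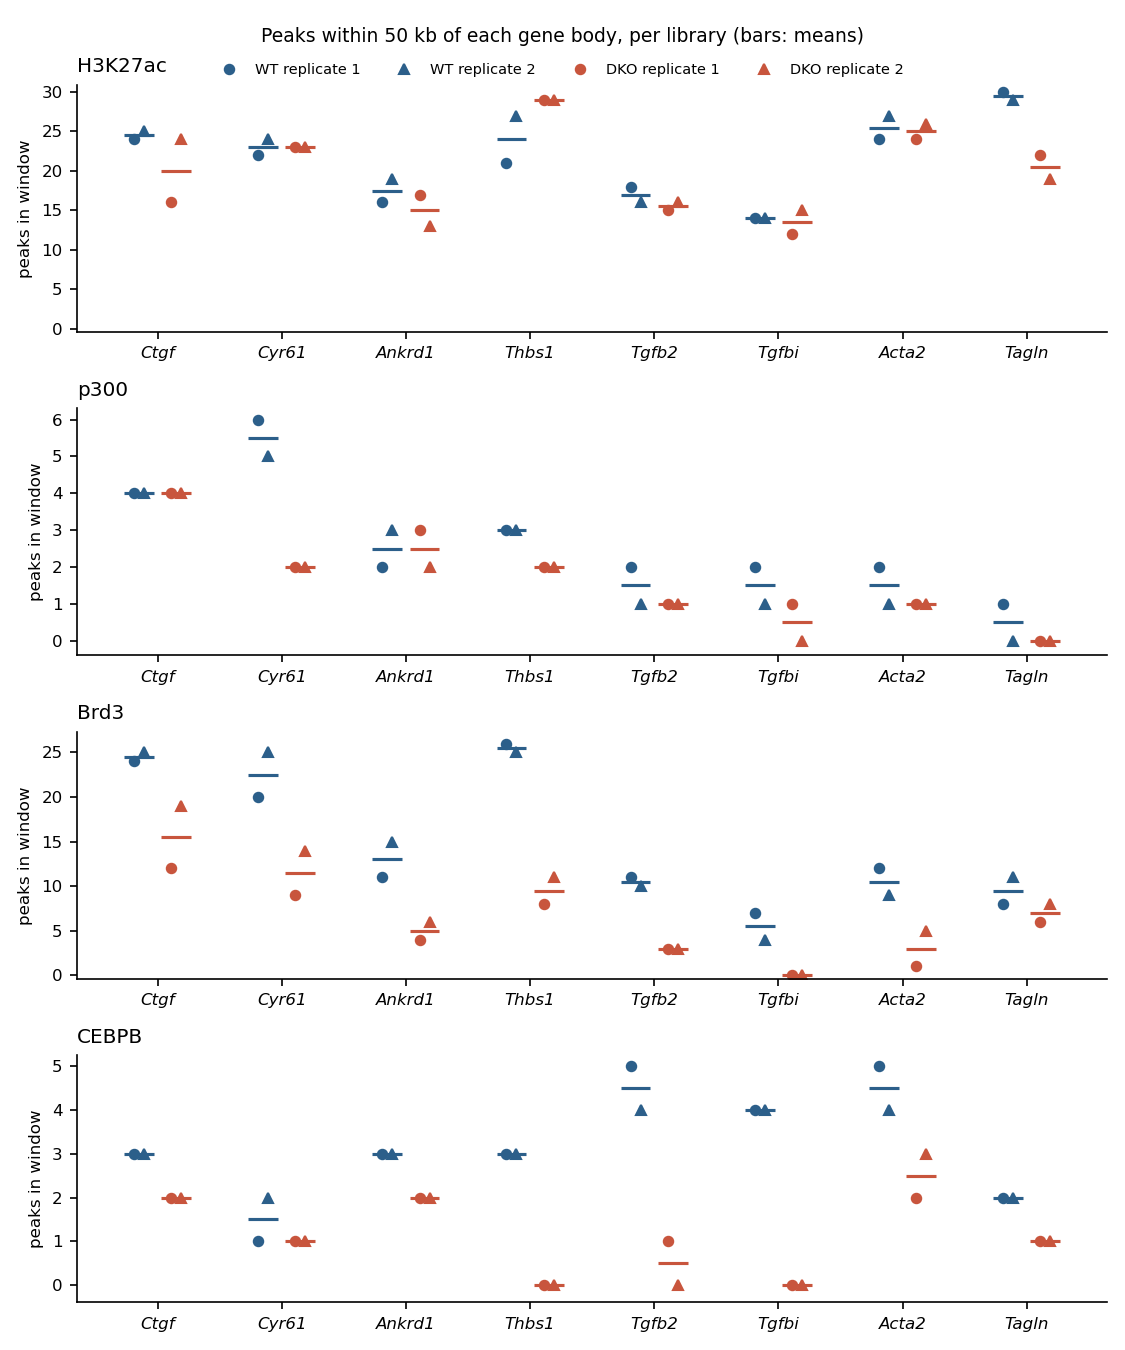
Number of peaks per library (y axis) in the gene body and 50 kb on each side of the 8 genes (x axis), 1 panel per antibody; blue is WT, red is DKO, circles and triangles are replicates 1 and 2, and bars are means. H3K27ac overlaps for all genes except Tagln and Thbs1, while the Brd3 values of WT lie above those of DKO for 7 of the 8 genes.

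The strength of acetylation at the genes' own promoters had no called difference. The highest fold enrichment within 1000 bp of the Ctgf start was 23.3 and 17.1 in WT and 25.0 and 26.6 in DKO. At the Cyr61 start it was 34.1 and 35.5 in WT and 29.5 and 36.7 in DKO, and at the Acta2 start 21.3 and 22.5 against 22.9 and 23.7. Both DKO values were the higher ones at Ctgf and Acta2, but the sites did not pass limma's test (log2 change 0.37, SE 0.23, adjusted p 0.364, and 0.09, SE 0.22, adjusted p 0.847). Ankrd1 had 15.8 and 17.8 in WT and 19.5 and 22.6 in DKO and did not pass either (0.32, SE 0.22, adjusted p 0.412). Thbs1 spanned 21.4 to 31.1 in WT and 27.5 to 29.4 in DKO, and Tagln 22.0 to 28.1 and 22.7 to 27.1. Tgfb2 was weaker, at 8.55 to 9.75 and 8.495 to 10.4. Tgfbi had no H3K27ac peak at its start in 3 of 4 libraries and a peak of 5.32-fold in WT replicate 2; its strongest acetylation lay 8.6 kb upstream, with 13.0 and 11.6 in WT and 14.3 and 17.1 in DKO.

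Over the 81 H3K27ac sites of the windows that were called in all 4 libraries, the median log2 change in fold enrichment was 0.00, against -0.08 over all 42234 such sites. Of these 81, 40 were below 0, beside 57.9% of all such sites, and 41 above. Lower enrichment in DKO was called at 2, beside 3.47% of all such sites, and both lie nearer to another gene. One is 49.4 kb upstream of Acta2 in an intron of Fas (log2 change -1.02, adjusted p 0.0270 by limma) and the other 49.0 kb upstream of Tagln near Pafah1b2 (-0.94, adjusted p 0.0319). The first call was lost without DKO replicate 1 (adjusted p 0.108), and the second without WT replicate 2 (0.0591) or DKO replicate 2 (0.132). No site was called higher. By presence, 9 of the 186 sites were called in both WT and no DKO library and 10 in both DKO and no WT library, 4.84% and 5.38%, beside 5.83% and 4.4% of all H3K27ac sites. At the 21 promoter sites neither kind occurred (2.67% of all promoter sites are WT-only), and all 9 WT-only sites were distal, 5.45% of 165 beside 6.55% of all distal sites.

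**Figure D2:**
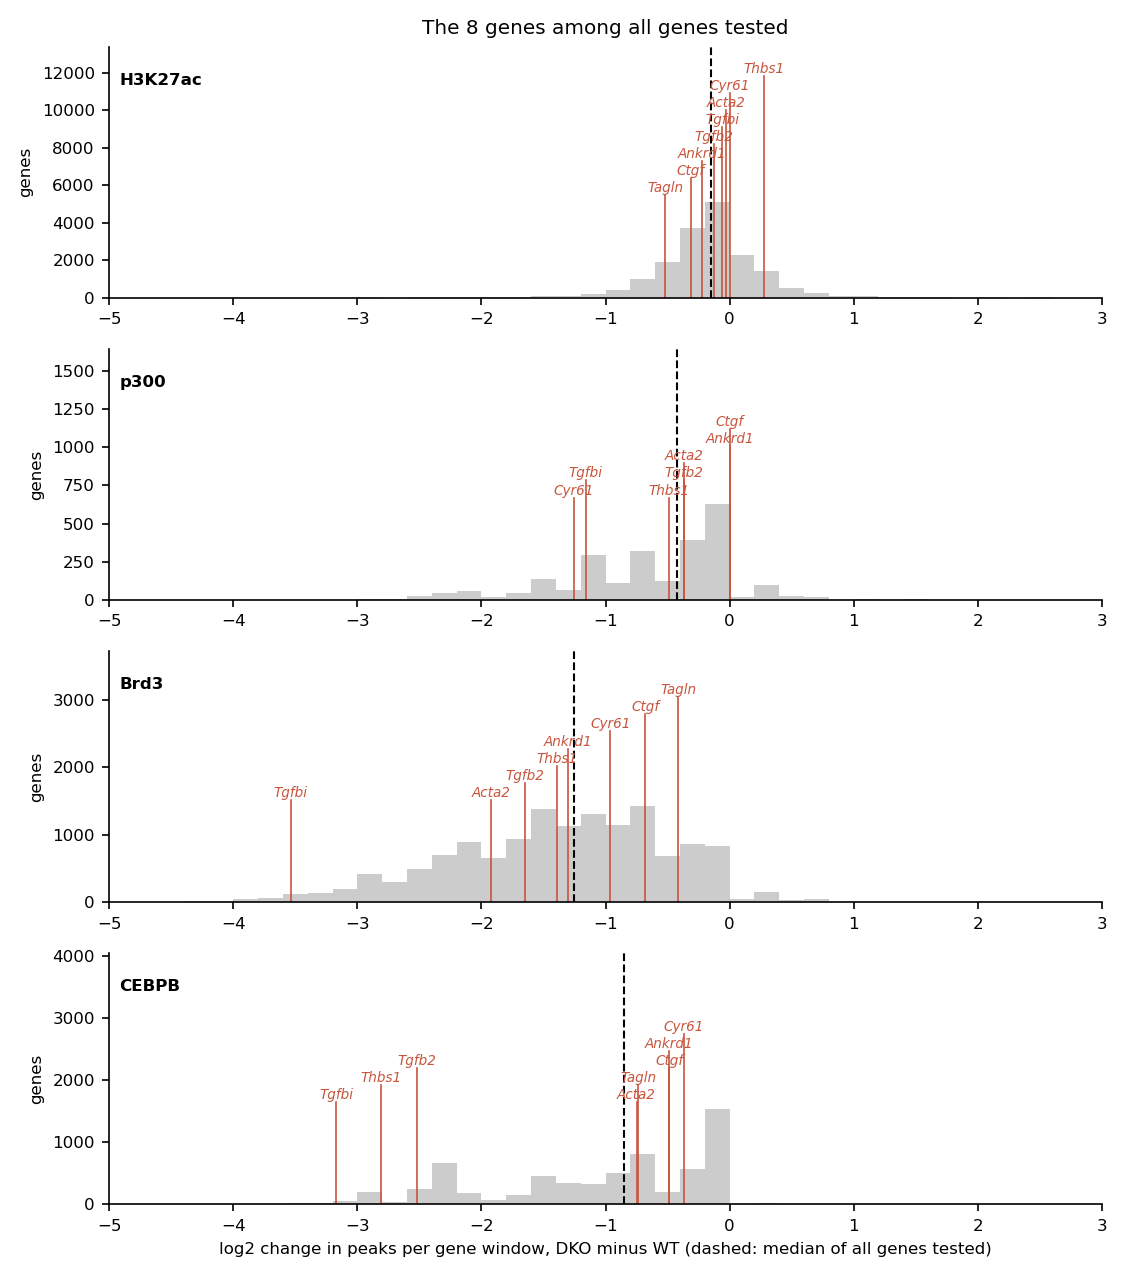
Histograms of the log2 change in peak number per gene window, DKO minus WT (x axis), over all genes tested (y axis, number of genes), 1 panel per antibody; red lines mark the 8 genes and the dashed line the median of all genes. The 8 genes lie around the median for H3K27ac, whose members range from -0.52 to 0.28, and for p300 and Brd3 they spread on both sides of it.

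For p300, the 8 genes differed from each other. Ctgf kept all of its p300 peaks, Cyr61 had fewer in DKO, and Tagln, with 1 peak in 1 library, was below the filter of a mean of 1 peak, leaving 7 genes tested. Fewer peaks were called by limma at 2 of the 7, Cyr61 and Thbs1, beside 9.59% of the 2440 genes tested, and the same 2 had both DKO libraries below both WT libraries, beside 28.2%. Of all genes called, 87.1% had equal replicates in both genotypes, as Thbs1 did. The median change was -0.37 over the 7 and -0.42 over all genes tested. With 1 spread for all genes 0 of the 7 were called, beside 7.91% of all genes. With a replicate block 0 were called with fewer, a count with no share of all genes beside it. Scaling peak numbers to each library's total adds the same amount to every gene's log2 change, 0.9996 for p300. The median of all genes was then 0.58, 5 of the 7 genes were above 0 (Ctgf and Ankrd1, unchanged before, at 0.9996, and Tgfb2, Acta2 and Thbs1 at 0.63, 0.63 and 0.51), and 0 of the 7 genes and of all genes were called.

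Cyr61 had 6 and 5 p300 peaks in WT and 2 in each DKO library (log2 change -1.26, SE 0.11, adjusted p 0.0413 by limma). The peak lying over its start, with its summit at -91 bases and covering the TEAD motif shown above, was called in WT with a fold enrichment of 5.55 and 5.42 and in no DKO library. A site 16.9 kb downstream of the start was likewise called in WT at 8.41 and 10.3 and not in DKO. The site 2.0 kb upstream was called in all 4 libraries, at 9.003 and 7.33 in WT and 8.40 and 5.70 in DKO. The strongest site, 35.3 kb upstream, was at 14.4 and 13.1 in WT and 9.38 and 13.1 in DKO. H3K27ac lay on both sides of the start in all 4 libraries and was not called changed. The site on the upstream side had a log2 change of -0.08 (adjusted p 0.867), and that over the gene was 25.95 and 25.7 in WT and 22.6 and 17.8 in DKO (-0.36, adjusted p 0.358).

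Thbs1 had 3 and 3 p300 peaks against 2 and 2; the replicates were equal, so the test saw almost no spread. The third peak was a site 47.5 kb downstream in WT replicate 1 (6.53) and a second peak within the promoter site in WT replicate 2. Its p300 site beside the promoter was at 9.91 and 8.21 in WT and 7.83 and 10.4 in DKO. Ctgf had 4 peaks in each of the 4 libraries, at 41.2, 14.2 and 6.0 kb upstream and at the start. The peak at the Ctgf start was 15.7 and 14.6 in WT and 14.05 and 10.95 in DKO (log2 change -0.29, SE 0.24, adjusted p 0.482). Both WT values were higher than both DKO values there, by less than the test could call, and so they were 6.0 kb upstream, at 17.0 and 13.3 against 7.33 and 11.7 (-0.70, SE 0.28, adjusted p 0.152).

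Ankrd1 went the other way at its promoter. The p300 site at -206 bases from the start had 5.52 and 4.07 in WT and 7.29 and 9.36 in DKO, a log2 change of 0.80 (SE 0.26) that did not pass over all sites (adjusted p 0.0914 by limma). The strongest p300 site of all 8 windows lay 9.6 kb upstream of Ankrd1, at 21.5 and 17.3 in WT and 16.4 and 13.7 in DKO (log2 change -0.37, adjusted p 0.376). Its sequence, 101 bases around the peak summit on the strand of the gene, has a TEAD motif on the reverse strand, in capitals.
Ankrd1 distal p300 site, chr19:36203847-36203947: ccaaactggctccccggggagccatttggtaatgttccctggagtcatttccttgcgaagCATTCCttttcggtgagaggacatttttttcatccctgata
The remaining genes had few p300 peaks. Tgfb2 had 2 and 1 in WT and 1 and 1 in DKO, both sites lying in the flank beyond the 3′ end of the gene, and Tgfbi had 2 and 1 against 1 and 0. Acta2 had 2 and 1 against 1 and 1. One of its sites, 10.6 kb upstream, was called in WT at 6.64 and 5.31 and not in DKO. At the Acta2 promoter itself, 0.3 kb upstream of the start, p300 was called in DKO replicate 1 only, at 5.135. The 1 Tagln peak, in WT replicate 1, was at the start at 6.47.

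By presence, 3 of 25 p300 sites were WT-only, 12% beside 15.2% of all p300 sites, and 0 were DKO-only beside 0.632%. With equal numbers of top peaks from each library 1 site was WT-only. Of the promoter sites 1 of 7 was WT-only (12.8% of all) and of the distal sites 2 of 18 (15.3%). Among 11 sites called in all 4 libraries, 0 passed limma's test for lower enrichment, beside 0.636% of 1730. An unadjusted p under 0.05 was found at 3, a count with no share of all sites beside it. The median log2 change was -0.29 against -0.21 over all sites. A TEAD motif lay within 100 bases of the summit at 12 of the 25 sites, beside 32.9% of all p300 sites. It was at 3 of 3 WT-only sites and 5 of 11 sites called in all 4 libraries, beside 31.7% and 38.8% genome-wide. An AP-1 motif was at 8 of 25, beside 47.8%. All 25 p300 sites lay in H3K27ac sites called in all 4 libraries. Beside this stand 71.3% of the WT-only p300 sites of the genome, 87.6% of those called throughout and 63.5% of those with a mixed pattern. At none of the 25 was acetylation called changed, beside 3.47% called lower among all H3K27ac sites called in all 4 libraries. At the 3 that were WT-only for p300 its log2 change ranged from -0.53 to -0.08.

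**Figure D3:**
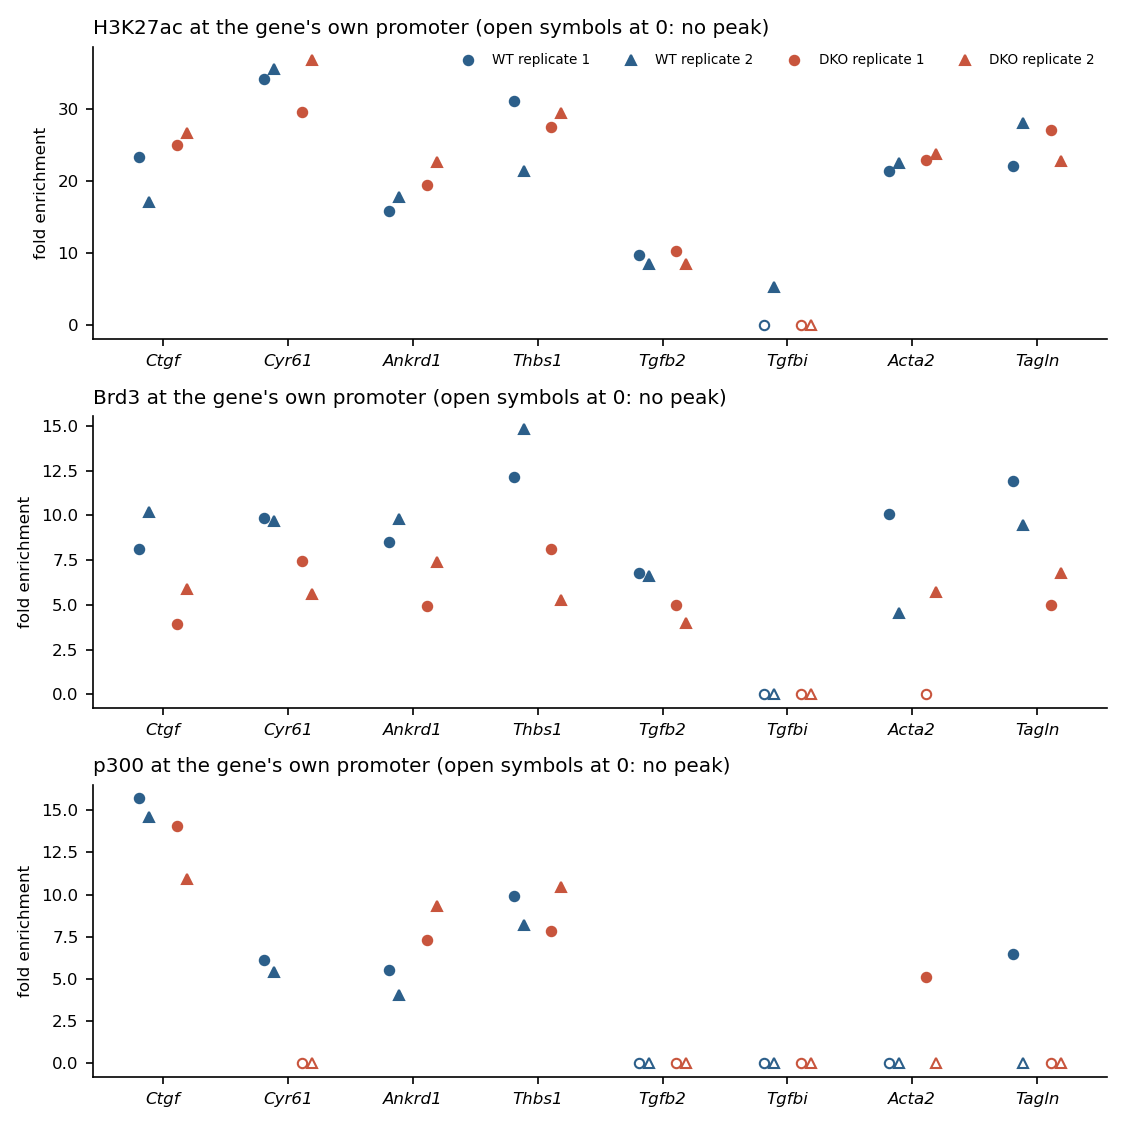
Highest fold enrichment (y axis) of H3K27ac, Brd3 and p300 peaks within 1000 bp of each gene's own start (x axis) in each library; colours and symbols stand for genotypes and replicates, and open symbols at 0 mean that no peak was called. Brd3 is lower in both DKO libraries at Ctgf, Cyr61, Ankrd1, Thbs1, Tgfb2 and Tagln, while H3K27ac is higher in both DKO libraries at Ctgf, Ankrd1 and Acta2, with no called difference, and overlaps at Cyr61, Thbs1, Tgfb2 and Tagln.

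Brd3 peaks were fewer in DKO around nearly all of the 8 genes, as they were across the genome. Both DKO libraries lay below both WT libraries for 7 of 8, all but Tagln, beside 76.0% of the 14025 genes tested. Fewer peaks were called by limma at 3 of 8, Tgfb2, Thbs1 and Tgfbi, beside 29.0%. The median log2 change was -1.35 over the 8 and -1.26 over all genes, so the change in the 8 genes was close to that of the typical gene. Scaling to each library's total adds 1.66 to the log2 change of every gene, so that the median of all genes was 0.40. On that scale Tgfbi was still called with fewer peaks (-1.88, adjusted p 0.0124), beside 4.81% of all genes. Thbs1 (0.27) and Tgfb2 (0.0122) were not called, and 3 genes, Ctgf, Cyr61 and Tagln, were called with more, beside 18.4%. With equal numbers of top peaks from each library 0 of the 8 were called, and with a replicate block 0 were called with fewer. No share of all genes stands beside these counts.

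Tgfbi had the largest change of the 8, with 7 and 4 Brd3 peaks in WT and 0 in both DKO libraries. The fitted log2 change of -3.54 (SE 0.33, adjusted p 0.0184) depends on the 0.5 added to each number and is no bound. Its 3 sites called in both WT libraries lay 27.3, 8.5 and 8.0 kb upstream, with fold enrichments between 3.81 and 6.97, and the start itself had no Brd3 peak in any library. Tgfb2 had 11 and 10 peaks against 3 and 3 (log2 change -1.65, SE 0.07, adjusted p 0.00415). Thbs1 had 26 and 25 against 8 and 11 (-1.39, SE 0.20, adjusted p 0.0387), and 10 of its 32 Brd3 sites, most of them inside the gene, were WT-only. In all 3 genes the difference between genotypes exceeded that between replicates. With 1 library left out, the Thbs1 call was lost without either WT library (adjusted p 0.243 and 0.235) and the Tgfbi call without either DKO library (0.114 and 0.0987).

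The other genes had similar but less regular numbers. Acta2 had 12 and 9 Brd3 peaks in WT and 1 and 5 in DKO, with DKO replicates too far apart for a call (adjusted p 0.182). Ankrd1 had 11 and 15 against 4 and 6 (adjusted p 0.0825), and Cyr61 20 and 25 against 9 and 14 (adjusted p 0.124). Ctgf had 24 and 25 against 12 and 19 (adjusted p 0.169). For these 4 genes each WT library exceeded each DKO library. With 1 spread for all genes Acta2 (adjusted p 0.00109) and Ankrd1 (0.0286) were called besides Tgfb2, Thbs1 and Tgfbi, making 5 of 8 beside 57.4% of all genes. In the covered length Ctgf went from 16.7 and 19.1 kb in WT to 4.68 and 7.91 kb in DKO, and with base pairs covered in place of the peak number all 8 genes were called lower, beside 81.3% of all genes. Tagln, with 8 and 11 peaks against 6 and 8, was the 1 gene that overlapped (log2 change -0.41, adjusted p 0.293).

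The strength of Brd3 at the starts was called lower at Ctgf and Tagln. At the Ctgf start it was 8.12 and 10.2 in WT and 3.96 and 5.90 in DKO (log2 change -0.91, SE 0.26, adjusted p 0.0302 by limma). At Tagln the site just inside the gene was 11.9 and 9.49 in WT and 3.96 and 6.77 in DKO (-1.04, SE 0.28, adjusted p 0.0240). At neither gene was the peak number called. Both calls were lost when fold enrichment was centred on each library's median (-0.50, adjusted p 0.314 at Ctgf, and -0.63, adjusted p 0.230 at Tagln). With 1 library left out, Ctgf was called only without WT replicate 1 (adjusted p 0.0177) and otherwise had 0.0593 to 0.204, and Tagln had 0.0558 without WT replicate 1 and 0.190 without DKO replicate 1. A second Tagln site 0.5 kb upstream of the start did not pass (3.81 and 3.83 against 4.99 and 3.99). Cyr61 was 9.87 and 9.67 against 7.47 and 5.63 (-0.59, adjusted p 0.0980), and Ankrd1 8.53 and 9.80 against 4.93 and 7.37 (-0.60, adjusted p 0.108). A further site 0.7 kb upstream of the Ankrd1 start was called in both WT libraries, at 7.22 and 5.22, and in no DKO library. At Acta2 the WT libraries themselves differed, at 10.1 and 4.54, with no peak in DKO replicate 1 and 5.74 in DKO replicate 2. At Thbs1 the promoter site, with its summit 1.7 kb upstream of the start, was 15.9 and 14.8 in WT and 8.499 and 11.2 in DKO (-0.65, adjusted p 0.0714), and did not pass although both WT values were above both DKO values.

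Away from the starts, the Brd3 site with the highest mean WT enrichment of the windows lay 3.2 kb upstream of Cyr61, at 17.0 and 14.4 in WT and 9.55 and 10.6 in DKO (log2 change -0.64, SE 0.24, adjusted p 0.0727). It did not pass, though both WT values were above both DKO values. Upstream of Ctgf, the site at 14.9 kb fell from 7.77 and 7.48 to 4.92 and 4.41 (-0.71, adjusted p 0.0488, a call lost with any 1 library left out, at 0.101 to 0.187), while the site at 5.7 kb was 6.93 and 11.4 in WT and 8.55 and 11.9 in DKO (0.19, adjusted p 0.656). Over the 22 Brd3 sites called in all 4 libraries 5 were called lower, beside 18.8% of 5422, and 17 were below 0, beside 82.6%. The others of the 5 were the promoters of Rrp15 in the Tgfb2 window (-1.03, adjusted p 0.0153) and of Pcsk7 and Rnf214 in the Tagln window (-0.89, adjusted p 0.0253). The median was -0.59 against -0.39 over all sites. After centring on the library median 0 of the 22 were called, and with 1 library left out 0 to 4, with 0 without DKO replicate 1.

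By presence, 32 of 140 Brd3 sites were WT-only, 22.9% beside 27% of all Brd3 sites, and 0 were DKO-only beside 0.0428%. With equal numbers of top peaks from each library far fewer were WT-only, as given with the alternatives below. At promoters it was 5 of 21 (27% of all) and at distal sites 27 of 119 (27%). Of the 32 WT-only sites, 29 lay in an H3K27ac site, 28 of them in one called in all 4 libraries. At 0 of these was H3K27ac called changed (log2 changes of -0.41 to 0.37). Of all H3K27ac sites called in all 4 libraries, 3.47% were called lower. The 28 Brd3 sites lay in 21 different H3K27ac sites. The share of 87.5% stands beside 91.8% of all WT-only Brd3 sites, and the Brd3 sites of the windows called in all 4 libraries had 19 of 22 in such acetylation, 86.4% beside 99.0%.

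CEBPB had few peaks at these genes, 1 to 5 per window in WT, and fewer in DKO. Both DKO libraries lay below both WT libraries for 7 of 8, all but Cyr61, beside 61.5% of the 6406 genes tested. Fewer peaks were called at 5 of 8, Ctgf, Ankrd1, Thbs1, Tgfbi and Tagln, beside 41.0%, but at all 5 the replicates had equal numbers, so that the estimated spread was 0 and no p is given; 76.7% of all genes called were of that kind. With 1 spread for all genes (SE 0.33 on the log2 scale) 5 were called as well, Thbs1, Tgfb2, Tgfbi, Acta2 and Tagln, beside 60.4% of all genes. The median log2 change was -0.74 over the 8 and -0.85 over all genes. Scaling to each library's total adds 1.501 to every gene, so that the median of all genes was 0.65. On that scale 5 genes, Ctgf, Cyr61, Ankrd1, Acta2 and Tagln, were called with more peaks in DKO, beside 49.1% of all genes, and Thbs1 and Tgfbi with fewer, beside 19.4%. With equal numbers of top peaks from each library 0 genes were called with fewer, and a window of 10 kb gave fewer such calls than 50 kb. No share of all genes stands beside these counts.

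The genes fell into 2 kinds by value. Thbs1 had 3 and 3 CEBPB peaks in WT and 0 and 0 in DKO, Tgfbi 4 and 4 against 0 and 0, and Tgfb2 5 and 4 against 1 and 0. In these 3 windows almost nothing was left in the DKO lists, and the peaks lost were weak to moderate, the highest being 10.6 and 8.72 at 38.1 kb from the Thbs1 start. Ctgf and Ankrd1 both had 3 and 3 against 2 and 2, and Tagln 2 and 2 against 1 and 1. Acta2 had 5 and 4 against 2 and 3, and Cyr61 1 and 2 against 1 and 1. In these 5 windows 1 or 2 sites were called in every library.

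The strongest CEBPB site of the 8 windows lay 14.1 kb upstream of Ctgf and was called lower. Its fold enrichment was 31.6 and 31.3 in WT and 14.4 and 15.6 in DKO, a log2 change of -1.07 (SE 0.17, adjusted p 5.63e-06 by limma), with replicates much closer than genotypes. It was called with any 1 library left out (adjusted p 1.582e-05 to 0.000722), but not after centring on the library median (-0.33, adjusted p 0.0905). H3K27ac over the same place was 9.48 and 10.2 in WT and 11.8 and 12.7 in DKO (log2 change 0.32, adjusted p 0.411), and p300 there was 7.18 and 8.18 against 9.64 and 8.99 (0.28, adjusted p 0.479). Neither acetylation nor p300 was called changed there. Enrichment was called lower at 4 of 8 sites present in all libraries, beside 67.4% of 4193. The other 3 were sites in introns of Enpp1 (13.1 and 15.7 against 9.60 and 10.5) and of Stambpl1 (10.8 and 8.51 against 6.45 and 6.94), and near Pafah1b2 (19.7 and 22.4 against 12.9 and 16.4), with log2 changes of -0.51, -0.52 and -0.53. The site near Pafah1b2 lies in the H3K27ac site of the Tagln window that was itself called lower (27.8 and 29.6 against 16.9 and 13.2). It is the 1 of the 6 acetylated CEBPB sites called throughout where acetylation was called changed, beside 3.47% called lower among all shared H3K27ac sites. Centring turned these 3 to 0.22, 0.22 and 0.21 and ended their calls, as did leaving out DKO replicate 1 without turning them. The median was -0.44 against -0.68 over all such sites.

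Ankrd1 held the 1 CEBPB site at an own promoter, at -305 bases from the start, with 8.47 and 13.6 in WT and 9.83 and 7.34 in DKO (log2 change -0.34, adjusted p 0.140), so the genotypes overlapped. A site 38.5 kb upstream of Ankrd1 was 7.12 and 5.74 in WT and 7.99 and 8.72 in DKO and did not pass in the other direction (0.39, adjusted p 0.0551). Against these, the site with the highest enrichment of that window in WT, in the 3′ flank 10.6 kb from the start, was called at 13.8 and 15.5 in WT and in no DKO library. In this window the site strongest in WT was missing from the DKO lists while weaker ones were in them.

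The sequences of 5 CEBPB sites, 101 bases around the summit on the strand of the gene, show how the CEBP core and the AP-1 motif are placed. The first is the Ctgf site called lower and the second the Cyr61 site called in all libraries; the others were called in WT only, that of Ankrd1 being chosen after its values were seen. Capitals mark the CEBP core TTGCNNAA on either strand and the AP-1 motif TGANTCA.
Ctgf, chr10:24301054-24301154: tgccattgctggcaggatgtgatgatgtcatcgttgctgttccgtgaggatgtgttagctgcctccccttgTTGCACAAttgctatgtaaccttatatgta
Cyr61, chr3:145355193-145355293: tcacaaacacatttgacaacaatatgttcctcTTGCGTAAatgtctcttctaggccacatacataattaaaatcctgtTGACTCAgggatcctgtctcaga
Ankrd1, chr19:36183700-36183800: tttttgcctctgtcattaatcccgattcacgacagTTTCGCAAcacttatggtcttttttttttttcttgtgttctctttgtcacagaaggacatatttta
Thbs1, chr2:117975655-117975755: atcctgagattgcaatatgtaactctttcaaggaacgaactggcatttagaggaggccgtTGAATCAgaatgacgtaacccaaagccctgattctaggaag
Tgfbi, chr13:56694697-56694797: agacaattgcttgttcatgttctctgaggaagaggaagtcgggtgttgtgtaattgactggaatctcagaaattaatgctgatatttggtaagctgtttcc
The core is in the first 3, an AP-1 motif is in the Cyr61 and Thbs1 sequences, and the Tgfbi sequence has neither. Within 100 bases of the summit, a CEBP core was found at 13 of the 30 sites, beside 49.7% of all CEBPB sites. It was at 6 of 11 WT-only sites and 5 of 8 sites called in all libraries, beside 48.9% and 58.7% genome-wide, and AP-1 was at 1 of 11 and 3 of 8, beside 20.2% and 30.3%.

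**Figure D4:**
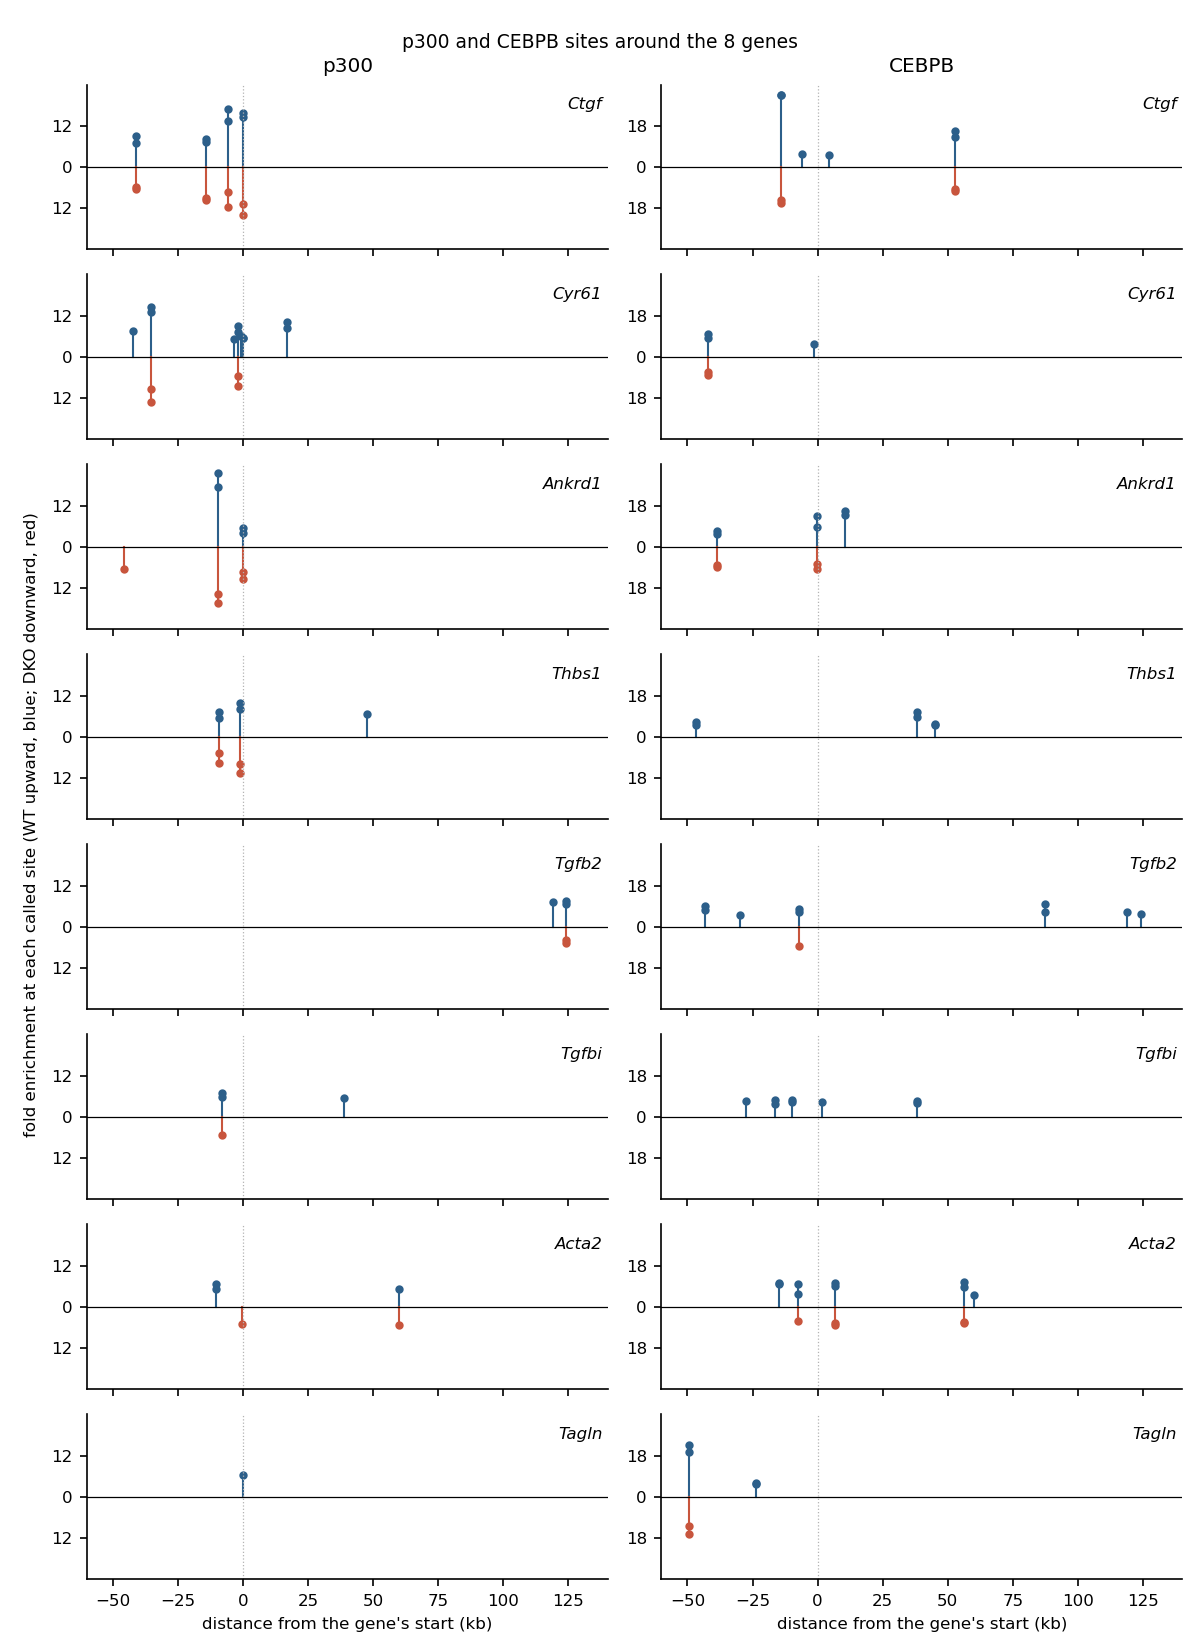
Fold enrichment (y axis, WT upward in blue, DKO downward in red, 1 point per library with a peak) of every p300 and CEBPB site against its distance from the start of the gene in kb (x axis; positive values lie downstream on the gene's strand). At Ctgf all p300 sites appear in both genotypes, and at Thbs1 and Tgfbi no CEBPB site appears in DKO.

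By presence, 11 of 30 CEBPB sites were WT-only, 36.7% beside 39.3% of all CEBPB sites, and 0 were DKO-only beside 0.482%. With equal numbers of top peaks from each library 1 site was WT-only and 1 DKO-only. Of the promoter sites 1 of 3 was WT-only (41.7% of all), that in the untranslated region of Rrp15, and of the distal sites 10 of 27 (39.1%). Of the 11 WT-only sites, 5 lay in an H3K27ac site, all called in the 4 libraries, and of the 8 sites called throughout 6 did, beside 30.7% and 42.7% of all such CEBPB sites. None of the 5 had a called change in acetylation, with log2 changes of -0.82 to 0.35. Of all H3K27ac sites called in all 4 libraries, 3.47% were called lower.

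**Figure D5:**
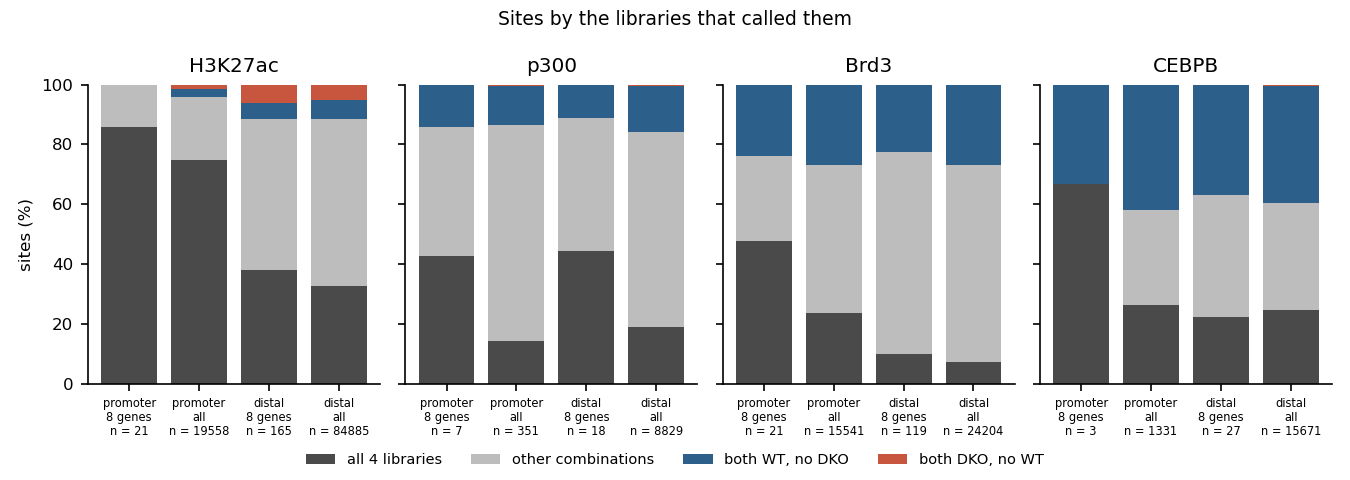
Share of sites (y axis, percent) called in all 4 libraries, in both WT and no DKO library, in both DKO and no WT library, or in another combination, for promoter and distal sites of the 8 genes and of the genome (x axis, with the number of sites), 1 panel per antibody. The WT-only share of the 8 genes' sites rises from 4.84% for H3K27ac to 36.7% for CEBPB, beside 5.83% and 39.3% of all sites.

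The other genes of both pathways were taken from 8 lists: ligands and latency proteins, receptors, SMADs and their regulators, YAP, TAZ and TEAD factors, Hippo kinases, SRF and its coactivators, and further response genes of TGF-beta and of YAP. For H3K27ac 77 were tested and 0 had a called change by limma, with a median log2 change of -0.13. Of the 77, 15 had an unadjusted p under 0.05, a count with no share of all genes beside it, so no excess can be read from it. With 1 spread for all genes 1, Igfbp3 (1 and 3 against 6 and 7), was called with more, beside 1.3% of all genes. For p300, 3 of 41 were called with fewer peaks and 0 with more: Tgfbr3, the TGF-beta co-receptor betaglycan (3 and 3 against 1 and 1), Tead1, a DNA-binding partner of YAP (5 and 4 against 1 and 1), and Ccdc80 (5 and 5 against 3 and 3). Replicates were equal at Tgfbr3 and Ccdc80, and with 1 spread for all genes neither was called (adjusted p 0.184 and 0.643), while Tead1 (0.0447), Tgif1 (3 and 2 against 0 and 1) and Vcl (2 and 4 against 0 and 1) were. For Brd3 24 of 70 were called with fewer and 0 with more, with a median of -1.47, and with 1 spread for all genes 49 were called with fewer, beside 57.4% of all genes. The 24 include the ligand gene Tgfb1 (9 and 11 against 2 and 2), Ltbp4, which binds latent TGF-beta (8 and 9 against 3 and 3), Tgfbr3 (6 and 5 against 0 and 0) and the Hippo kinase gene Lats2 (16 and 15 against 6 and 6). Timp3, a metalloproteinase inhibitor, had 4 and 4 against 0 and 0, and Gadd45a 4 and 3 against 0 and 0. For CEBPB 21 of 43 were called with fewer and 0 with more, and 31 with 1 spread for all genes, beside 60.4% of all genes. Nf2, which encodes the Hippo regulator merlin, had 3 and 3 against 0 and 0. Skil, Smurf2 and Tgfbr2, a SMAD repressor, a ubiquitin ligase and the type II receptor, each had 2 and 2 against 0 and 0, and Amot, which encodes a YAP-binding scaffold protein, 2 and 2 against 1 and 1. The replicates of these 5 CEBPB genes were equal, and all 5 were called with 1 spread for all genes as well. The background shares of each antibody given above hold here too, 9.59%, 29.0% and 41.0%.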

How the data were processed

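ChIP-seq was done on MEFs with 4 antibodies and 2 libraries per genotype. Per the labels and the study's methods, the authors demultiplexed reads with bcl2fastq 1.8.4, trimmed them with cutadapt 1.16 and aligned them to mm9 with BWA 07.17. They marked duplicates, removed blacklisted reads and called peaks in each library with MACS2 2.1.1.20160309. The methods name SICER as the alternative peak caller. The deposited lists hold, for each peak, its fold enrichment over background (a ratio) and its −log10 p and −log10 q, with the lowest −log10 q near 2. The reads, which the paper states are available, were not used here. From the peak lists alone the count-based comparison of the study could not be run, and libraries could not be scaled by depth.

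The 8 genes, the lists and the rules were chosen with earlier results of these data known. Peaks over each protein-coding gene body and 50 kb on each side were counted, and log2(number + 0.5) was compared by limma 3.58.1 in R 4.3.3 (trended prior, genes with a mean of at least 1 peak). For sites called in all 4 libraries, log2 of the highest fold enrichment was compared by limma (constant prior). P-values were adjusted over all genes or sites by Benjamini-Hochberg, at a threshold of 0.05. Both fits were also run on simulated data with 1 spread for all features and changes only in features above the median. That does not test calls at low or equal peak numbers, and no result is taken from it. With 2 against 2 libraries an exact test cannot go below 0.333, and none was used. Fold changes of peak number are on the log2(number + 0.5) scale and understate changes of low numbers. Named were the 8 genes, their own promoter sites, the site of each window with the highest mean −log10 q per antibody, and up to 6 called list genes per antibody by lowest adjusted p; 1 gene this rule names is not reported here. Sites named in addition were chosen after their values were seen. Sequences were read from mm9 or RefSeq with pysam 0.24.0, on Python 3.11.15; motif shares leave out chromosome 18. Alternatives changed the pseudocount, prior, scaling, peak threshold (−log10 q of at least 4, or equal numbers of top peaks), window (10 kb), merging of peaks (1000 bp), measure and replicates. The input libraries and the peak lists of other cells entered no comparison.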

Additional observations from a re-analysis of the deposited data

Results flagged for a closer look

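The peak lists of embryonic stem cells (ESCs) and resting B cells entered no comparison of the 8 genes. The ESC lists of 2 pluripotency factors held more peaks in the 8 windows in DKO than in WT. Sox2 had 5 and 5 peaks in WT and 9 and 7 in DKO, and Oct4 had 8 and 9 in WT and 17 and 19 in DKO. The whole lists were longer as well, at 10324 and 10222 against 16174 and 17144 for Sox2 and 11140 and 12627 against 26742 and 30864 for Oct4. For Oct4, the values were 2 and 2 against 5 and 4 at Ctgf, 1 and 1 against 3 and 4 at Cyr61, and 2 and 2 against 4 and 4 at Ankrd1. They were 1 and 2 against 3 and 3 at Acta2, 2 and 2 against 2 and 3 at Tgfbi and 0 and 0 against 0 and 1 at Thbs1, with 0 in every library at Tgfb2 and Tagln. The difference was not tested.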

How the results depend on the processing

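Scaled to the total peaks of a library, the genes called with fewer peaks numbered 0 for p300, 1 for Brd3 and 2 for CEBPB, and with equal numbers of top peaks per library 0, 0 and 0. Scaling adds 1 amount to every gene of an antibody, 0.13 for H3K27ac, 0.9996 for p300, 1.66 for Brd3 and 1.501 for CEBPB, so the signs it turned follow from that shift: Brd3 at Ctgf (0.98), Cyr61 (0.70), Ankrd1 (0.36), Thbs1 (0.27), Tgfb2 (0.0122) and Tagln (1.25), CEBPB at Ctgf and Ankrd1 (1.016 each), Cyr61 (1.13), Acta2 (0.75) and Tagln (0.76), p300 at Thbs1 (0.51), Tgfb2 and Acta2 (0.63 each), and H3K27ac at Tgfb2 (0.0062), Tgfbi (0.0749) and Acta2 (0.11); all are log2 changes, DKO minus WT. Equal numbers of top peaks turned Brd3 at Ctgf (1.07), Cyr61 (0.24), Thbs1 (0.54), Acta2 (0.79) and Tagln (0.30), CEBPB at Acta2 (0.24), and H3K27ac at Tgfb2 (0.0451), Tgfbi (0.11) and Acta2 (0.0578). They left 1 WT-only site for p300, 3 for Brd3 and 1 for CEBPB, with 1 DKO-only site for each of Brd3 and CEBPB. Centring fold enrichment on the library median left 0 of 22 Brd3 and 0 of 8 CEBPB sites called lower.

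Merging peaks within 1000 bp left 1 call for p300 and 1 for Brd3, and turned Brd3 at Ctgf (0.39) and H3K27ac at Acta2 (0.31). Base pairs covered gave 0 calls for p300 and 8 for Brd3, and turned H3K27ac at Ankrd1 (0.0693), Tgfbi (0.13) and Acta2 (0.0766). A window of 10 kb gave 1 call for H3K27ac, 0 for p300 and 2 for CEBPB, turned Brd3 at Ctgf (0.12) and H3K27ac at Tgfb2 (0.10), and held 4 WT-only and 4 DKO-only sites for H3K27ac, and 1, 18 and 4 WT-only sites for p300, Brd3 and CEBPB. A −log10 q of at least 4 turned H3K27ac at Tgfbi (0.0601). A trended prior gave 4 H3K27ac sites called lower. One spread for all genes, chosen after seeing the data, gave 0 calls for p300 and 5 for Brd3 (57.4% of all genes). For merging, the 10 kb window, the trended prior, the replicate block and left-out libraries, no share over all genes or sites stands beside the counts. Those counts describe how calls depend on the settings and are not set against the genome. The cause of these changes was not tested.

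The deviations of same-numbered replicates correlated between -0.03 and 0.01 over genes or sites. That measure leaves out a shift common to a whole library, so it cannot decide whether replicate numbers pair the samples. The labels do not say, and the main fits did not pair them. With the replicate block, genes called with fewer peaks numbered 0, 0, 0 and 5 for H3K27ac, p300, Brd3 and CEBPB, and 4 H3K27ac, 0 p300, 7 Brd3 and 4 CEBPB sites were called lower.

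With 1 library left out, the lone library of a genotype was taken to vary like the others. Calls ranged from 1 to 4 for p300 (4 without either WT library, 1 without either DKO library), from 2 to 3 for Brd3 and from 5 to 6 for CEBPB, and stayed at 0 for H3K27ac. Sites called lower ranged from 1 to 3 for H3K27ac (1 without either DKO library), from 0 to 4 for Brd3 (2 without WT replicate 1, 0 without DKO replicate 1 and 1 without DKO replicate 2) and from 1 to 4 for CEBPB (2 without WT replicate 2 and 1 without DKO replicate 1). WT-only sites ranged from 16 to 25 for H3K27ac, 3 to 9 for p300, 37 to 72 for Brd3 and 12 to 16 for CEBPB, and DKO-only sites from 11 to 26, 0 to 2, 0 to 5 and 0 to 0, since 1 library fewer must agree. The log2 change of H3K27ac ranged from -0.11 to 0.0566 at Acta2, turning without WT replicate 2 or DKO replicate 1, and from -0.21 to 0.0962 at Tgfbi, turning without DKO replicate 1. Of 329 values for single genes or sites under the other alternatives, 259 kept their direction and their side of the threshold and 34 reversed. Of the counts of calls and of sites, 31 of 96 moved by over 1.5 times under these alternatives and 27 of 64 with 1 library left out.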

Other observations

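The MEF lists of H3K27me3, the mark of Polycomb repression, and of linker histone H1 held 0 peaks in the 8 windows in every library, but these lists were short, at 117 to 553 and 281 to 315 peaks. CTCF in ESCs was called 43, 43, 43 and 46 times in the windows of the 2 WT and 2 DKO libraries, and Nanog 28 and 30 times in WT and 32 and 28 times in DKO. In resting B cells Ikaros peaks lay at Acta2, 3 and 3 in WT and 1 and 0 in DKO, and at Tagln, 4 and 4 in WT and 5 and 4 in DKO. The other 6 genes had 0 Ikaros peaks in every library. In B cells Ets1 had 4 and 3 peaks in the 8 windows in WT and 0 and 0 in DKO, with whole lists of 4524 and 4561 against 1220 and 1098. Irf8 had 0 and 2 against 1 and 1, and Pax5 and Oct2 had 0 in every library. Klf4 in ESCs had 2 and 1 against 1 and 0. None of these differences was tested.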
